A study of Mus musculus with 6 samples.

Results

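Among the 104 ATAC-seq peak intervals of mouse epididymal white adipose tissue, 10 stood far from any other interval. They were named for predicted genes, small RNA genes or pseudogenes and had some of the highest fold enrichments of the series. Whether they are open chromatin was not tested. They were the intervals whose given gene name is Gm10222, Gm44436, Gm9075, Gm13197, Gm23935, Gm2651, Mir6356, Gm33838, Gm25352 or Gm27940, and each name had 1 interval, so that 10 of the 104 intervals of the series are described. The names were chosen by the mean fold enrichment over the 6 libraries, which was among the highest of the table, so the level of fold enrichment is a description and carries no test. Symbols that begin with Gm are provisional names for predicted mouse genes, many of them pseudogenes or short RNAs without a known function. The interval takes the name of a nearby transcription start site, which does not have to lie inside it.

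The samples were epididymal white adipose tissue with Armc5 deleted in adipocytes (Armc5 KO 1 to 3, n = 3) and from flox controls (flox control 1 to 3, n = 3). The title of the series links ARMC5 to degradation of SREBF1 and to fatty acid desaturation. The Cre line, the age and the sex are not given in the sources used here, and the labels do not say whether each sample is a different mouse. The p-values therefore reflect sample-to-sample spread that could be technical only. The deletion is directed at adipocytes, while the tissue also holds immune, endothelial and progenitor cells. Armc5 was named by 0 intervals, as were all 23 marker genes of adipocytes and of these other cells, so neither the deletion nor the tissue could be checked from the table. In bulk tissue, fewer cells of a type and less accessible chromatin per cell cannot be told apart.

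ATAC-seq maps open chromatin with a transposase that inserts adapters where DNA is free of nucleosomes, and a peak is a stretch where many fragments pile up. The fold enrichment of a peak is the pileup at its summit over the background that the peak caller expects there. Peak callers of this kind can take that background from a window around the peak, which then includes the fragments of the peak itself. Reads from sequences present in many copies in a genome can collect at the few copies that the assembly holds, and published lists of such high-signal regions exist for the mouse genome. No such list was used here, and no base sequence of the 10 intervals was at hand, so their copy number was not tested.

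The positions (mm10, counted from 1) placed 6 of the 10 intervals inside a reference gene, and 2 of them, Gm10222 and Gm33838, inside or across the gene they are named for. The Gm10222 interval lay on chromosome 1 from 24612639 to 24612858, with 62 bp of it in the pseudogene Gm10222 (24612404 to 24612700), and the authors' annotation calls it the promoter of an unprocessed pseudogene. This locus is known as a nuclear copy of part of the mitochondrial genome. The Gm33838 interval lay on chromosome 9 from 35305217 to 35305585, inside a long non-coding RNA gene of that name (35285514 to 35307723) and, in the authors' annotation, in its only intron. Chl1, which encodes a cell adhesion molecule of the L1 family, held the Gm44436 interval (chromosome 6, 103649092 to 103649287), which the authors' annotation places in intron 3 of 26 of a protein-coding transcript. Camk1d, which encodes a calcium- and calmodulin-dependent kinase, held the Gm13197 interval (chromosome 2, 5379223 to 5379378), also in an intron 3, of 10, and 95.7 kb from the start site that named it.

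The Gm23935 interval (chromosome 16, 11143977 to 11144286) lay at the start of a transcript annotated as a microRNA and inside Zc3h7a, which encodes a CCCH-type zinc finger protein. The Mir6356 interval (chromosome 18, 68692068 to 68692246) lay 47.2 kb from the microRNA gene that named it and inside the long non-coding RNA Gm30821. The remaining 4 intervals overlapped no reference gene. They were those of Gm9075 (chromosome 12, 3109871 to 3110079), Gm2651 (chromosome 6, 3201384 to 3201573), Gm25352 (chromosome 3, 5860419 to 5860814) and Gm27940 (chromosome 1, 195241527 to 195241810), and the nearest reference genes lay 54.7, 2.87, 109 and 44.4 kb away. The Gm27940 interval was annotated as the promoter of a transcript of the class misc_RNA, with its start site 0.661 kb away, and the other 3 as intergenic. For 7 of the 10 intervals the naming start site was more than 1 kb away. Each of the 10 was isolated, the nearest other interval of the series lying between 2.33 and 102 Mb away. This distance was not taken for the other 94 intervals, so it does not set the 10 apart from them.

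Libraries were not of equal standing. Flox control 3 had 64 of the 104 intervals, against 85, 88 and 75 in Armc5 KO 1, 2 and 3 and 94 and 97 in flox controls 1 and 2. Its peaks were at least 112 bp wide, while the minimum elsewhere was 86 to 88 bp. The counts of differences between the groups are given with and without it.

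By mean fold enrichment over the 6 libraries the 10 intervals took places 1 to 5 and 7 to 11 of the 104. Gm27940 was the lowest of them at 41.2, and the next below it were the intervals named for Cdk8 at 38.84 and Gm6020 at 38.84. The gap between Gm27940 and these 2 was smaller than the spread of Gm27940 between libraries. The sixth place belonged to Filip1l at 51.4, a known protein-coding gene and so not among the 10. All 10 were called in all 6 libraries, with 1 peak in each, and all 10 passed the filter on a mean fold above 1.

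The Gm10222 interval had a fold enrichment of 89.8, 93.7 and 83.0 in Armc5 KO 1, 2 and 3, against 97.0, 103 and 75.5 in flox controls 1, 2 and 3. The flox controls held both the highest and the lowest value, and all Armc5 KO values lay between them. The Gm44436 interval in Chl1 was even across libraries, with 82.3, 86.5 and 77.9 in Armc5 KO and 82.7, 83.9 and 81.8 in flox controls. Gm9075 was as even, with 79.0, 84.2 and 76.9 in Armc5 KO and 85.0, 81.6 and 82.1 in flox controls. These 3 were the highest of all intervals in every library, and in flox control 3 Gm10222 was the lowest of the 3.

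Gm13197, in Camk1d, came next in 5 of the libraries, with 59.1, 64.3 and 58.3 in Armc5 KO and 64.8, 72.4 and 52.5 in flox controls. The Gm23935 interval in Zc3h7a had 55.3, 59.5 and 50.4 in Armc5 KO and 56.5, 60.8 and 30.7 in flox controls. Here flox control 3 was the lowest, and the other 5 libraries were all above 50. Gm25352 had the same low library, with 44.3, 44.9 and 47.8 in Armc5 KO and 45.9, 47.0 and 31.0 in flox controls. The Gm33838 interval was even, with 46.7, 50.02 and 50.2 in Armc5 KO and 49.4, 48.5 and 54.9 in flox controls, flox control 3 being the highest.

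The last 3 were higher in flox control 2 than in any other library. Gm2651 had 47.0, 52.3 and 49.5 in Armc5 KO and 53.2, 61.4 and 43.5 in flox controls. Mir6356 had 50.8, 49.2 and 42.2 in Armc5 KO and 55.01, 63.1 and 45.5 in flox controls. Gm27940 had 37.7, 45.5 and 33.1 in Armc5 KO and 45.7, 50.3 and 34.7 in flox controls. In all 10 intervals the values of the 2 groups overlapped, against 7.27% without overlap among the 55 intervals called in all 6 libraries. The −log10 q of these peaks, which grows with the number of reads as well as with the fold, ran from 72.8 (Gm27940 in Armc5 KO 3) to 1546 (Gm10222 in flox control 2).

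**Figure D1:**
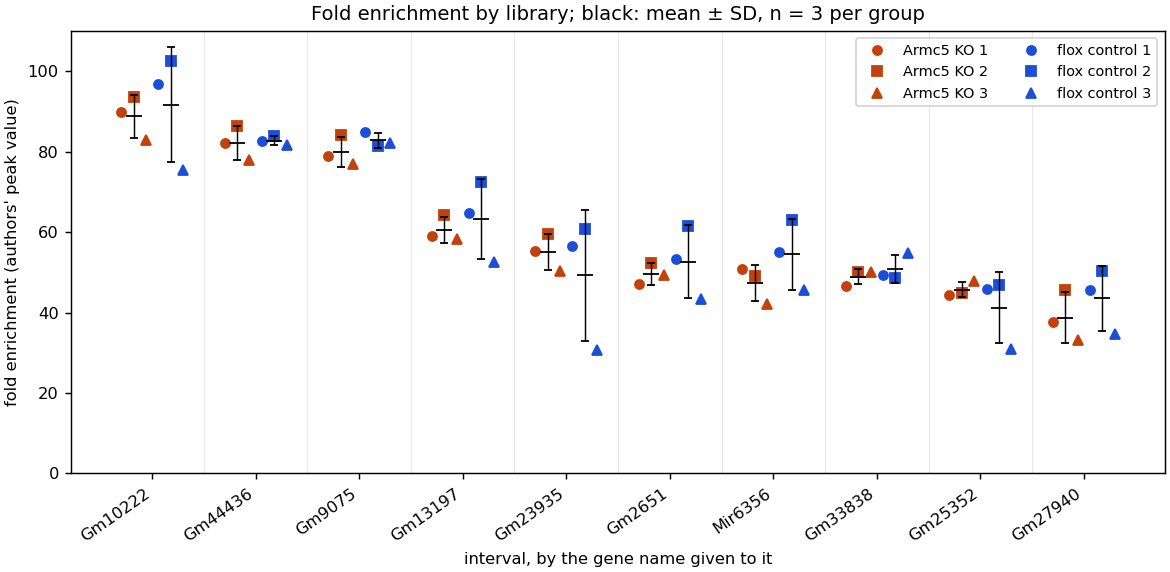
Fold enrichment (vertical axis, the authors' value per peak, no unit) of the 10 intervals in each of the 3 Armc5 KO (orange) and 3 flox control libraries (blue), with the mean and SD of each group in black. Gm10222, Gm44436 and Gm9075 lie above the others in all 6 libraries, and the groups overlap in all 10 intervals. Flox control 3 (blue triangle) is lowest at Gm10222, Gm13197, Gm23935, Gm2651 and Gm25352, by most at Gm23935 and Gm25352.

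Summits of the 6 libraries lay within 4 to 19 bp of each other at the 10 intervals (median 8.5 bp), against a median spread of 55 bp over the 45 other intervals called in all 6 libraries. Those 45 were also wider (median 297 bp, up to 1846 bp, against 214.5 bp) and had a lower median pileup (46.8, against 215). Agreement of summits at equal width and pileup was not tested. Ends lay within 10 bp of each other at 7 of the 10 and starts at 5. The widest spread of ends was 45 bp at Gm23935. At Gm9075 all 6 starts lay within 1 bp, and at Gm13197 within 2 bp. At Gm33838 the peak was 363, 363 and 361 bp wide in Armc5 KO and 363 bp in each flox control. The same end was given in 5 libraries at Gm13197, Gm33838 and Gm25352. The end in flox control 3 lay beyond that of every other library at 6 intervals, by 6 bp at Gm33838, by 4 bp at Gm10222, Gm13197, Gm25352 and Gm44436 and by 1 bp at Gm9075.

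Width varied most at Gm27940, where the start moved by 130 bp between libraries while the summits stayed within 6 bp. Its peak was 161, 194 and 133 bp wide in Armc5 KO, with summit pileups of 60, 84 and 48, and 258, 284 and 151 bp wide in flox controls, with pileups of 90, 108 and 57. Over these 6 libraries the order by width was the order by pileup. The Gm44436 peak was 166, 164 and 148 bp wide in Armc5 KO and 167, 191 and 181 bp in flox controls. It was the 1 interval of the 10 whose widths did not overlap between the groups, where 9.09% of the 55 intervals called in all 6 libraries did not. The difference at Gm44436 was -0.17 on the log2 scale of width (SE 0.07, limma adjusted p = 0.707). By this test 0 of the 10 widths differed at an adjusted p of 0.05, against 0% of the 55 intervals (limma), 0 of the 10 having an unadjusted p under that limit, against 3.64% of the 55. Width was lower in Armc5 KO at 7 of the 10, against 58.2% of the 55. Without flox control 3 it was lower at all 10, against 72.7% of the 55, and 1 of the 10 had an unadjusted p under 0.05, against 7.27% of the 55, with a lowest adjusted p of 0.348 among the 10 (limma). Mean summit positions of Armc5 KO and flox controls differed by at most 4.33 bp.

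**Figure D2:**
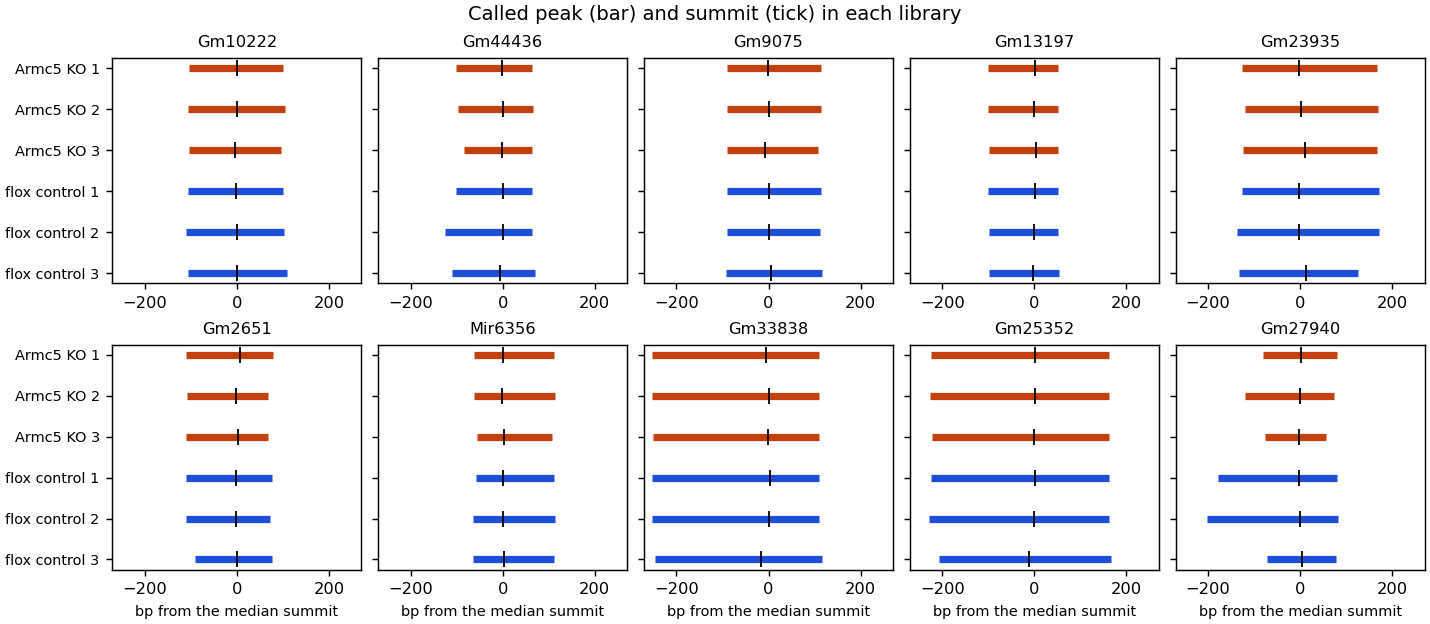
Extent of the called peak (bar) and its summit (tick) in each library, Armc5 KO (orange) above flox control (blue), in bp from the median summit of the 6 libraries. Summits lie within 19 bp of each other in every panel, the ends lie within 10 bp of each other at 7 intervals, and the start ranges over 130 bp at Gm27940.

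The pileup behind these folds differed between libraries far more than the folds did. The pileup is the number of fragments (or extended reads, since the sources used here do not say which) over the summit, and it was solved from the deposited fold and p-value together with the local background. At Gm10222 it was 411, 515 and 313 in Armc5 KO, against 611, 952 and 419 in flox controls, a 3.04-fold span. The local background moved with it, at 3.59, 4.51 and 2.78 in Armc5 KO and 5.31, 8.29 and 4.56 in flox controls. The ratio of pileup to background was therefore 115, 114 and 112 in Armc5 KO and 115, 115 and 91.8 in flox controls. Leaving out flox control 3, the ratio spanned 1.02-fold in the libraries while the pileup spanned 3.04-fold.

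Each of the other 9 intervals also had a narrower span of ratios than of pileups. Over the 5 libraries without flox control 3, the highest ratio was 1.02 to 1.11 times the lowest at the 10 intervals (median 1.07), while the highest pileup was 1.30 to 3.04 times the lowest (median 1.72). Over the 45 other common intervals the median span was 1.21 for the ratio and 1.73 for the pileup. Their median pileup was 46.8, against 215 at the 10, and a lower pileup carries a larger counting error. The 2 sets are therefore not alike in this respect. Pileup and background can also share the fragments of the peak. An even ratio is then partly built in and is no separate sign that libraries agree. The background at the 10 intervals ran from 0.48 to 11.1 and their pileup from 48 to 993. Counting alone gives a pileup an error of 14.4% at the lowest and 3.17% at the highest of these. This error does not carry over to the ratio where its 2 terms share fragments. The fold adds 1 to pileup and background, so that at an equal ratio a peak with a lower pileup has a lower fold. Gm13197 shows this against Gm44436. Its ratio was 114, 111 and 111 in Armc5 KO and 112, 113 and 92.1 in flox controls, higher in every library than at Gm44436, where it was 105, 107 and 106 in Armc5 KO and 106, 105 and 90.9 in flox controls. Its fold was lower in all 6 libraries, and so was its pileup, with 121, 150 and 120 in Armc5 KO and 151, 200 and 120 in flox controls. The pileup at Gm44436 was 375, 454 and 291 in Armc5 KO and 374, 421 and 800 in flox controls.

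The ratio was lower where the interval was wide. The 3 widest intervals, Gm23935, Gm33838 and Gm25352, with peaks of 261 to 392 bp, had ratios of 52.3 to 89.8 without flox control 3. The 7 narrower intervals, with peaks of 133 to 284 bp, had ratios of 91.0 to 115 in the same libraries. This division was made after the values were seen. Over the 10 intervals the mean ratio and the mean width had a Pearson correlation of -0.96 and a Spearman correlation of -0.70, given as a description, since the points share libraries and depth. Over the 45 other common intervals these were -0.36 and -0.32. The background in the ratio can include the fragments of the peak, so ratio and width are not independent measures. Mean fold and mean pileup had a Spearman correlation of 0.68 over the 10 and 0.02 over the 45. The 10 were chosen by mean fold, and the fold is computed from the pileup. These correlations are therefore a description and do not set the 10 apart from the 45.

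**Figure D3:**
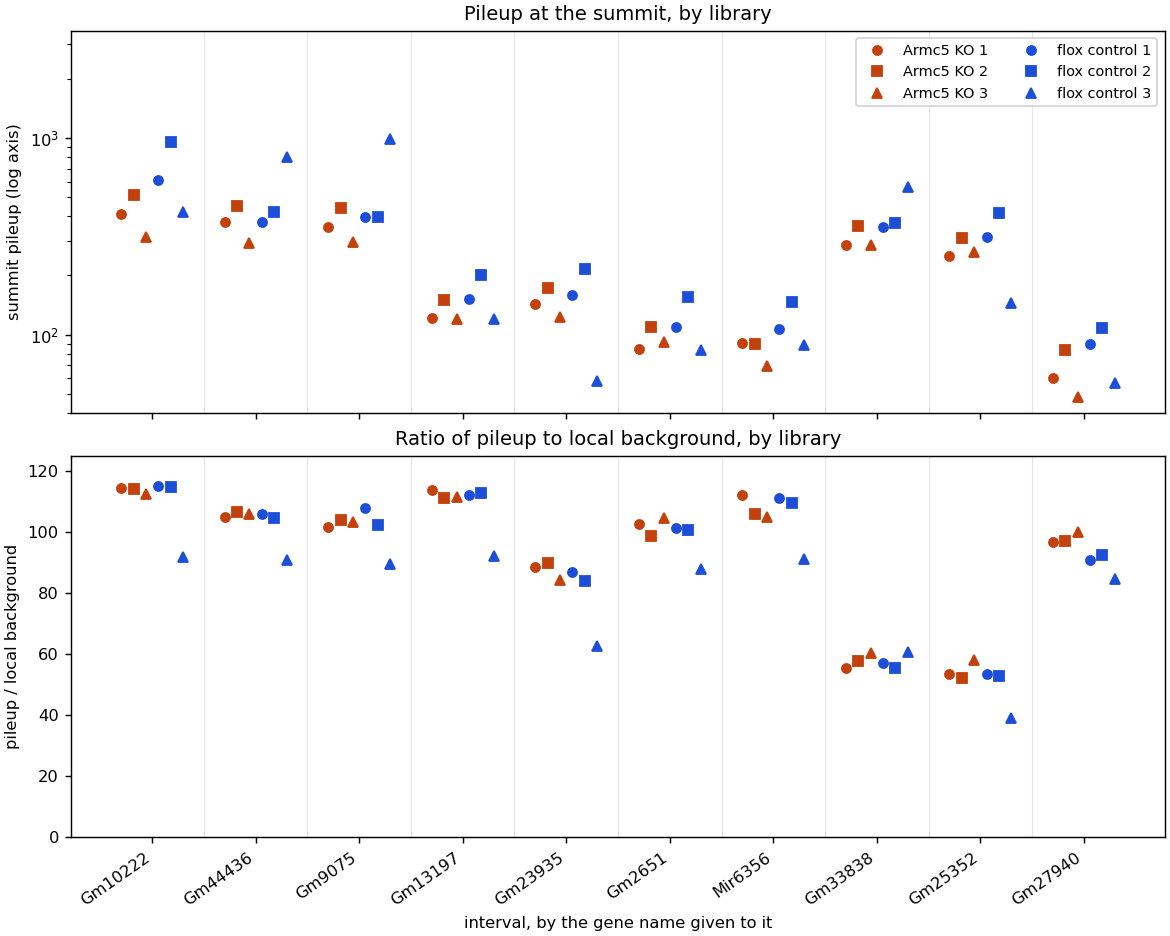
Summit pileup (upper panel, log axis) and ratio of pileup to local background (lower panel) of the 10 intervals in each Armc5 KO (orange) and flox control library (blue). Pileups range from 48 to 993, while the ratios of the 5 libraries other than flox control 3 nearly coincide within each interval, and the ratio of flox control 3 (blue triangle) is the lowest at 9 of 10.

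Flox control 3 stood apart in opposite directions, at these intervals and at the other common ones. Its pileup was the highest of all 6 libraries at Gm9075, Gm44436 and Gm33838 and lower than in the other two flox controls at the other 7. At Gm9075 the pileup was 351, 440 and 296 in Armc5 KO and 396, 397 and 993 in flox controls, so that flox control 3 had 2.50 times the mean of flox controls 1 and 2. The same ratio was 2.01 at Gm44436 and 1.55 at Gm33838. It was 0.309 at Gm23935, where the pileup was 144, 173 and 123 in Armc5 KO and 159, 217 and 58 in flox controls, and 0.396 at Gm25352, where it was 250, 311 and 263 in Armc5 KO and 314, 418 and 145 in flox controls. Over all 55 common intervals the ratio ran from 0.217 to 4.48. The ratio of pileup to background in flox control 3 was the lowest of the 6 libraries at 9 of the 10 intervals and the highest at Gm33838.

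Flox control 2 had the highest pileup of the 6 libraries at the 7 intervals where flox control 3 did not. At Gm10222 its pileup was 10.6 times the median of the 55 common intervals in that library, against 7.34, 6.96 and 5.59 times in Armc5 KO and 7.19 and 7.22 times in flox controls 1 and 3. The 10 intervals together held 33.6, 32.9 and 32.2% of the summed pileup of the 55 in Armc5 KO, against 33.0, 35.2 and 28.8% in flox controls.

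Armc5 KO and flox controls were compared for each interval with limma on log2(fold + 1), fitted over the 55 intervals called in all 6 libraries. Of the 10 intervals, 0 passed an adjusted p of 0.05, against 0% of the 55, and 0 of the 10 had an unadjusted p under that limit, against 1.82% of the 55. The background moved with the pileup at these intervals, so the fold changed less than the pileup. At Gm10222, without flox control 3, the pileup spanned 3.04-fold and its ratio to background 1.02-fold. Where the background was low, the fold still followed the pileup in part. At Gm27940 the fold ran from 33.1 in Armc5 KO 3 to 50.3 in flox control 2, and the pileup from 48 to 108. A fold without a difference therefore does not exclude a difference in pileup. The log2 difference, Armc5 KO minus flox control, had a median of -0.05 over the 10, equal to that over the 55, and was negative at 8 of 10, against 67.3% of the 55. Each of the 10 had an adjusted p of 0.949 (limma).

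Gm44436 and Gm9075 had the narrowest 95% intervals. Gm44436 had a fold enrichment of 82.2 ± 4.28 in Armc5 KO and 82.8 ± 1.096 in flox controls (SD, n = 3 each), a difference of log2(fold + 1) of -0.01 (SE 0.06, 95% interval -0.16 to 0.14). Gm9075 had 80.0 ± 3.78 in Armc5 KO and 82.9 ± 1.84 in flox controls, a difference of -0.05 (95% interval -0.20 to 0.10). Gm10222 had 88.8 ± 5.42 in Armc5 KO and 91.7 ± 14.3 in flox controls, a difference of -0.03 (95% interval -0.31 to 0.24). The largest negative difference was at Mir6356, with 47.4 ± 4.56 in Armc5 KO and 54.5 ± 8.79 in flox controls, a difference of -0.19 (95% interval -0.52 to 0.14). Positive differences were found at Gm23935, with 55.1 ± 4.53 in Armc5 KO and 49.3 ± 16.3 in flox controls (0.21, 95% interval -0.36 to 0.78), and at Gm25352, with 45.6 ± 1.86 in Armc5 KO and 41.3 ± 8.93 in flox controls (0.17, 95% interval -0.24 to 0.57). At these 2 flox control 3 had the lowest fold, as it also had at Gm10222, Gm13197 and Gm2651. Without that library the differences at Gm23935 and Gm25352 were -0.09 and -0.02. Without flox control 3, all 10 differences were negative, against 83.6% of the 55, and 2 of the 10 had an unadjusted p under 0.05, against 10.9% of the 55, while the lowest adjusted p of the 10 was 0.337 (limma). The median pileup of the 55 was then 85 and 90 in flox controls 1 and 2, against 56, 74 and 56 in Armc5 KO. At an equal ratio a lower pileup gives a lower fold, and the part of depth in this sign was not tested. Without flox control 2, which had the highest fold at 6 of the 10, 5 of the 10 were negative, against 26 of the 55.

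The direction depended on the scale and on the libraries kept. With the ratio of pileup to background in place of the fold, the difference was positive at all 10 intervals, from 0.0043 at Gm33838 to 0.19 at Gm25352 (median 0.09), against 54.5% of the 55, and 0 of the 10 passed (limma, adjusted p 0.713 to 0.989). Flox control 3 had the lowest ratio of the 6 libraries at 9 of the 10. Without that library the difference was positive at 6 of the 10, against 47.3% of the 55, with a median of 0.01. Of the 10, 1 then had an unadjusted p under 0.05, against 1.82% of the 55 (limma, adjusted p = 0.923 for each of the 10). With pileup centred on each library's median, 6 of the 10 were negative, against 40% of the 55, from -0.31 at Gm10222 to 0.52 at Gm23935, and 0 passed (limma, adjusted p = 0.905 for each). Without flox control 3 the centred pileup was negative at 3 of the 10, against 18.2% of the 55, and the median over the 10 was 0.0948, where all 6 libraries gave -0.10. In that fit 4 of the 10 had an unadjusted p under 0.05, against 12.7% of the 55, and the lowest adjusted p of the 10 was 0.164 (limma). For all 55 the medians were -0.05 (fold), 0.02 (ratio) and 0.08 (centred pileup). Half-widths of the 95% interval at the 10 intervals, with 3 libraries per group, ran from 0.15 to 0.57 with the fold, 0.18 to 0.32 with the ratio and 0.40 to 1.17 with the centred pileup. An observed difference smaller than its half-width has an unadjusted p above 0.05 (limma). The adjustment over the 55 intervals asks for a larger one, so the half-widths are not detection limits.

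**Figure D4:**
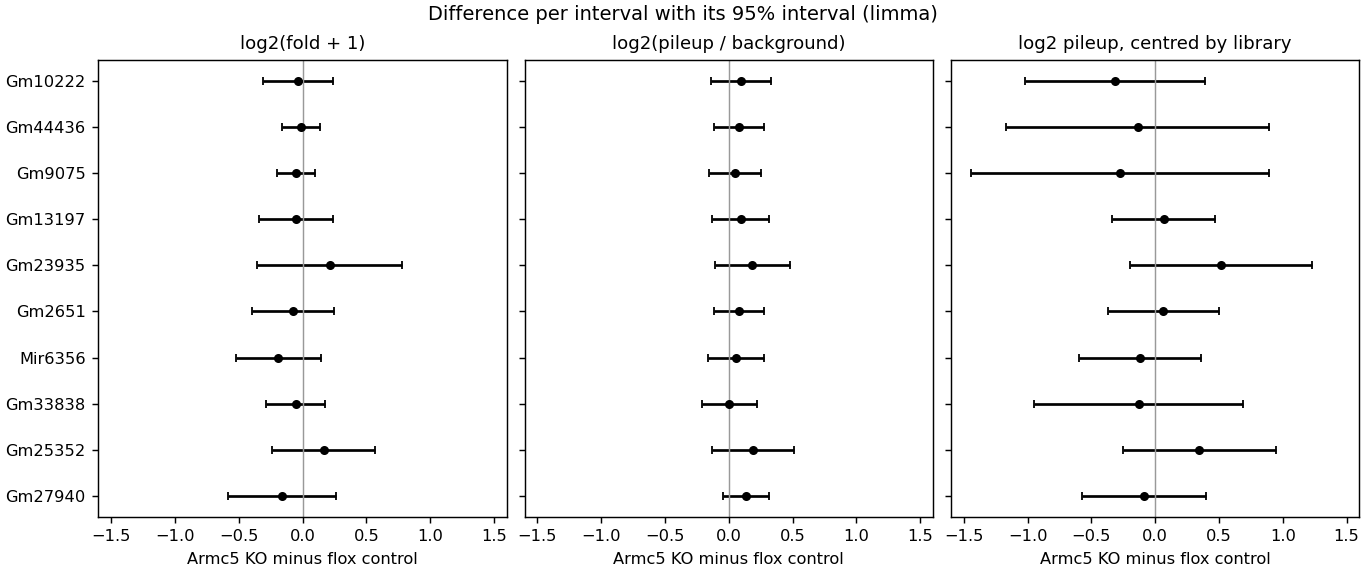
Log2 difference, Armc5 KO minus flox control, with its 95% interval from limma (n = 3 libraries per group), for the fold, the ratio of pileup to background and the centred pileup at the 10 intervals. All intervals include 0, 8 of 10 points lie below 0 with the fold and all 10 lie above 0 with the ratio.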

How the data were processed

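The genome build mm10 and the tools MACS2 2.2.7.1, Bowtie2 2.3.5.1, cutadapt 4.0 and deepTools 3.5.1 are named, without roles, per the submitters' processing notes. Read shifting, duplicates, mitochondrial reads and excluded regions are not given in the sources used here. Each peak of a library has, per the file headers, a fold ratio, −log10 p-value and q-value, start, end and summit offset, and the authors joined 519 peaks into 104 intervals. The deposited fold was set within each library. WT in a column name was taken to mean flox control. Starts were taken as counted from 0 and are printed from 1.

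Pileup and background were solved from the deposited fold, (pileup + 1)/(background + 1), and a Poisson tail. A whole pileup gave the −log10 p within 0.005 at all 519 peaks, with 1 solution at 512 of them and at all 60 peaks of the 10 intervals. The procedure was tested on simulated peaks. Median pileup over the 55 common intervals was 56, 74 and 56 in Armc5 KO and 85, 90 and 58 in flox controls. Read totals are unknown. Solved pileups are not counts of reads per feature, so no count test was run.

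Fold and width were compared with limma 3.58.1 (R 4.3.3) over the 55 intervals, on log2(fold + 1) with a trend and log2(width) without, Benjamini-Hochberg adjusted at 0.05. Intervals with several peaks took the one with the highest fold. Armc5 KO 1 and 2 differed by no more than counting noise (chi-square per degree of freedom 0.881), but Armc5 KO 1 and flox control 1 were nearly as close (1.12), so all stayed separate. Gene positions came from RefSeq (GRCm38.p6), which lists 5 of the 10 names. The text names the 10 intervals, the neighbours of the lowest by mean fold, called intervals, host genes and Armc5. The intervals, lists and tests were chosen with earlier results of these data known. The 13 lipid genes listed for the study were named by 0 intervals.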

Additional observations from a re-analysis of the deposited data

How the results depend on the processing

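None of the 10 intervals was called in any of the alternatives for fold or width. They were 2 other pseudocounts (0.5 and 2), no low-value filter (which removed nothing), intervals called in at least 2 libraries per group, centring, pileup over background, centred pileup, no trend, the mean over peaks, averaged Armc5 KO 1 and 2, the replicate block and each library left out. For width they were the block, at least 2 libraries per group, summed widths, a trend and each library left out. Leave-one-out values of the ratio and of the centred pileup were added after the data were seen. Over the 55 intervals the fold gave 0 calls, 1 with the replicate number as a block and 0 to 1 with a library left out. The 1 was Gm10719 (limma adjusted p = 0.00205 with the block, 0.0429 without Armc5 KO 3), where the fit over all 6 libraries without the block gave 0.742 and a log2 difference of -0.89. Width gave 0 calls over the 55, and 0 to 1 with a library left out. Same-numbered libraries deviated with correlations of 0.0258, 0.605 and 0.276, so the numbers were not taken as pairs.

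The median difference over the 10 was -0.05, ranged from -0.13 to 0.02 with a library left out and was 0.0858 with pileup over background, for which leaving out a library gave 0.01 to 0.13. For the centred pileup it was -0.10, and -0.16 to 0.0948 with a library left out. With pileup over background the sign turned at Gm10222 (0.0929), Gm44436 (0.0785), Gm9075 (0.0476), Gm13197 (0.0919), Gm2651 (0.0797), Mir6356 (0.0559), Gm33838 (0.0043) and Gm27940 (0.13). With centred pileup it turned at Gm13197 (0.0668) and Gm2651 (0.0621). With a library left out the difference ranged from -0.17 to 0.0514 at Gm10222, -0.0479 to 0.0264 at Gm44436, -0.18 to 0.0513 at Gm13197, -0.20 to 0.0417 at Gm2651, -0.0923 to 0.39 at Gm23935 and -0.0243 to 0.27 at Gm25352. The cause of these turns was not tested. At Gm9075, Mir6356, Gm33838 and Gm27940 no left-out library turned the sign. The ranges were -0.088 to -0.0228, -0.31 to -0.0809, -0.0874 to -0.00026 and -0.31 to -0.0498. The value at Gm33838 without flox control 3 was thus close to 0. The lowest pileup, 48 at Gm27940, carries the largest counting error.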
